A study of Homo sapiens with 18 samples.

Results

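Y RNAs are small noncoding RNAs that human cells carry under 4 names, HY1, HY3, HY4 and HY5. They were taken here as every row of both deposited tables whose repeat name is one of these names. The table with 5-fluorouracil (5-FU) held 912 such rows among 2404193 repeat copies, and the table with Nutlin held 819 among 1996647. Of these rows 4 in each table, one per name, lay together on chromosome 7q36, where the functional genes are. The other 908 and 815 rows were dispersed copies, spread over 24 chromosomes.

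The libraries came from IMR90, a human fibroblast line grown from lung and labelled wildtype, and were made from total RNA with a stranded kit. Nutlin, which keeps MDM2 from binding p53, was given at 5 µM for 6 h. 5-FU, a pyrimidine analogue, was given at 375 µM for 6, 12 or 24 h. Each drug and time had its own DMSO group, and untreated cells had their medium renewed 12 h before RNA was extracted. Every group was labelled with 2 replicates, and nothing says whether these were separate cultures, so p-values measure only the spread between such libraries. The untreated replicates of the Nutlin table held identical values and were used as 1 sample. The tables list repeats and no other genes, so fibroblast markers and p53 targets could not be checked.

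Y RNAs are transcribed by RNA polymerase III. Their ends pair into a stem that holds the binding site of the Ro60 protein, and their uridine-rich tail is bound by La. They are known for a part in the quality control of misfolded RNA through Ro60 and for a part in the start of chromosomal DNA replication. Many processed copies without a promoter of their own are scattered through primate genomes.

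The 4 copies of 7q36 fell within 45761 bases of hg19, the build in the submitters' processing notes. HY5 was listed at chr7:148638580-148638663, HY4 at chr7:148660407-148660499, HY3 at chr7:148680847-148680947 and HY1 at chr7:148684229-148684340. Their spacing matched that of the RefSeq genes RNY5, RNY4, RNY3 and RNY1 in GRCh38 within 1 base. RNY1 lies on the minus strand, RNY3 and RNY4 on the plus strand, and GENCODE release 29 has no other gene over these 3. The sequences of RNY1 and RNY4 are shown so that the ends that form the stem and the tail can be seen beside the counts of these genes. They are GENCODE transcripts of GRCh38 written as DNA. Capitals mark GGTCCGA, a part of the 5′ end that forms the stem, and the final run of T that ends polymerase III transcription.
RNY1, chr7:148987136-148987248, minus strand: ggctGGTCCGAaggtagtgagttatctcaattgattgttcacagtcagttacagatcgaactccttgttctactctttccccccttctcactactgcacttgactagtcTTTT
RNY4, chr7:148963315-148963410, plus strand: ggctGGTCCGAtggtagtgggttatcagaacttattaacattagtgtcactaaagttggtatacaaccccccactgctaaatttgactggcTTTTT

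RNY1 and RNY4 share GGTCCGA at position 5, counted from the 5′ end, and differ from each other by 41 single-base changes, insertions or deletions. Among 812 Y RNA transcripts in GENCODE, 1 lay within 5 changes of RNY4, and the nearest to RNY1 was 6 changes away. GGTCCGA was found in 63 of 800 Y RNA transcripts of 80 to 120 bases (7.88%) and in 2 of 3610 other transcripts of that length (0.0554%). On the opposite strand it was found in 0 and 9 of them. A final TTTT was found in 50 of the 800 Y RNA transcripts (6.25%) and in 519 of the 3610 others (14.4%). This ending was thus less frequent among Y RNA transcripts.

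The 5-FU table had library totals of 2412334 to 6290320 counts, with DMSO 12 h the smallest, and Y RNA rows took 0.152% to 0.322% of them. Totals in the Nutlin table were larger, 9109885 to 11880265 counts, of which Y RNA rows took 0.0484% to 0.0676%. The name 7SLRNA (signal recognition particle RNA) alone took 5964322 to 7940418 of these counts, against 169096 to 375910 in the 5-FU table. The larger totals are thus not read as greater depth, and the Y RNA shares are not compared between the tables. The untreated columns of both tables bear the names of the same samples, but their totals were 3481300 and 2895007 with 5-FU and 9669973 with Nutlin. Of these counts 7SLRNA took 185679 and 169096 with 5-FU and 5964322 with Nutlin. The 7q36 copy of HY1 held 1557 and 993 counts with 5-FU and 1576 with Nutlin, and that of HY3 4223 and 3013, and 4348. Why the tables differ was not tested, and no other count was compared between them. Of the dispersed copies in the 5-FU table, 397 of 908 had no count in any library, 149 had at least 10 counts in all and 15 passed the low-count filter. Of those in the Nutlin table, 495 of 815 had none, 29 had at least 10 and 6 passed. All 4 copies of 7q36 passed in the 5-FU table, whereas HY5 did not pass in the Nutlin table.

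Levels as CPM (counts scaled to a common library total with TMM factors) per 100 bases put the 7q36 copies in the order HY3, HY1, HY4, HY5. Their median levels over the 14 libraries of the 5-FU table were 991, 498, 30.3 and 4.10 on this per-length scale. Over the 5 libraries of the Nutlin table they were 349, 117, 6.87 and 0.644. The HY5 copy was thin throughout, with 3 to 39 counts in the 5-FU libraries and 2 to 14 in those of the Nutlin table. HY1 was the name whose counts lay most steadily on its gene: 90.9% to 97.8% of all HY1 counts were on the 7q36 copy in each library of the 5-FU table.

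HY3 counts lay on different copies in different libraries. The 7q36 copy held 4223 and 3013 counts in untreated cells, 6413 and 5904 in DMSO 6 h, 4560 and 5463 in DMSO 12 h, and 4377 and 5418 in DMSO 24 h. With 5-FU it held 4414 and 124 counts after 6 h, 6107 and 4895 after 12 h, then 224 and 251 after 24 h. The copy of chromosome 12 (hg19 chr12:42848522-42848621) held 0 and 6415 counts in 5-FU 6 h, 4 and 0 in 5-FU 12 h, and 9427 and 12804 in 5-FU 24 h. In the untreated and DMSO libraries of this table it held 0 to 197 counts. Thus 3 libraries, 5-FU 6 h replicate 2 and both of 5-FU 24 h, had high counts on chromosome 12 and low counts on 7q36, and the other 11 had the reverse. In the Nutlin table the chromosome 12 copy held 0 to 14 counts and the 7q36 copy 3151 to 4348.

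**Figure D1:**
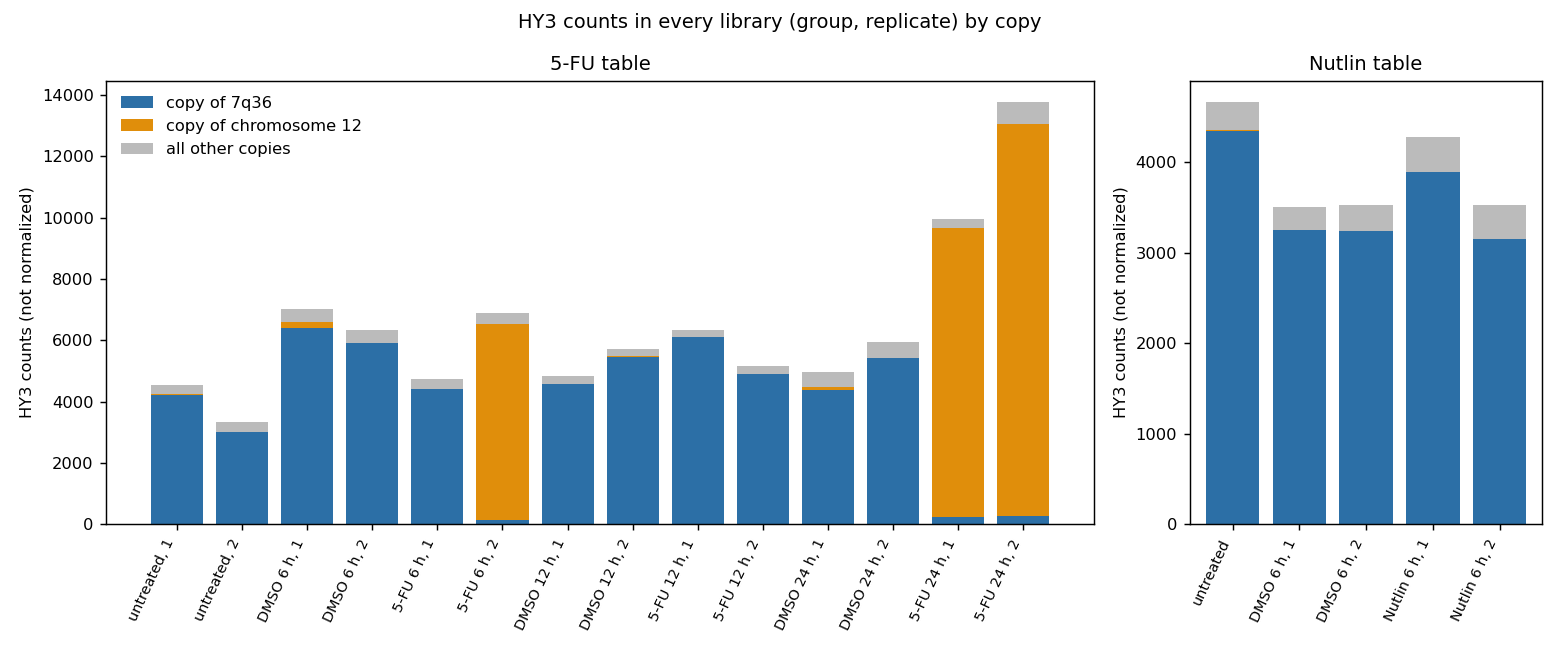
HY3 counts, not normalized, in each of the 14 libraries of the 5-FU table and the 5 of the Nutlin table, stacked by copy (7q36, chromosome 12, all others). In 5-FU 6 h replicate 2 and in both 5-FU 24 h libraries nearly the whole bar belongs to the chromosome 12 copy; elsewhere it belongs to the 7q36 copy.

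Read copy by copy, the HY3 row of 7q36 was lower after 24 h of 5-FU by 4.27 on the log2 scale (SE 0.81, edgeR adjusted p = 0.00268, n = 2 against 2). The row of chromosome 12 was higher by 7.51 (SE 1.64, edgeR adjusted p = 0.00893), with no overlap between the groups. The second call was lost without DMSO 24 h replicate 1 (9.83, edgeR adjusted p = 0.0548) or replicate 2 (6.62, 0.134), and with DESeq2 (7.46, DESeq2 adjusted p = 0.0908). The sum over all HY3 copies was higher, not lower, in the same libraries. How reads that match both copies were counted is not given in the sources used here, and its part in these opposite changes was not tested. The chromosome 12 copy lies in an intron of PPHLN1, on the same strand. Of 35 repeat copies within 10 kb of it 8 were tested, and 0 were called at 6, 12 or 24 h. Their log2 fold changes at 24 h ran from -0.61 to 0.92, with a median of 0.31.

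HY4 was divided between its 7q36 copy and dispersed copies. Per library of the 5-FU table the 7q36 copy took 0% to 80.2% of HY4, with a median of 61.5%. Among the Nutlin table libraries its share ran from 39.1% to 61.9%, with a median of 61.1%. Most of HY4 lay on a chromosome 1 copy in a single library, with a share of 77.9%. The HY4 copy of 7q36 held 110 and 0 counts in 5-FU 6 h, against 219 and 206 in DMSO 6 h. In that library without a count, 5-FU 6 h replicate 2, a HY4 copy of chromosome 1 (hg19 chr1:151411476-151411569, in an intron of POGZ on the opposite strand) held 233 counts. It held 0 to 3 in the other 13 libraries and 0 to 2 in the Nutlin table. This copy did not pass the filter and was singled out after its values were seen. It differs from RNY4 by 9 changes. The count of 0 allows up to 3 counts in that library, for counting error alone.

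After 6 h of 5-FU the copies of 7q36 were therefore read with and without that library. The log2 fold change of the HY3 copy was -1.36 (SE 0.71, edgeR adjusted p = 0.711), -0.40 without 5-FU 6 h replicate 2 and -5.72 (adjusted p = 4.35e-07) without replicate 1. That of the HY4 copy was -1.89 (adjusted p = 0.539), and -0.86 without replicate 2. Without replicate 1 only the library with 0 counts stands against 219 and 206, so the fitted value depends on the prior count and is not given (edgeR adjusted p = 2.01e-06). In these fits the lone library is assumed to vary like the libraries of the other groups. Of the 4 copies 0 were called at 6 h by edgeR and 0 by DESeq2, 2 had an unadjusted edgeR p under 0.05, and 0.101% of all copies tested were called.

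Sums over all copies of a name do not depend on which of these copies receives a read, provided each read is counted once and under that name. Whether this held is not known, since the handling of reads with several matches is not given. With that limit the sums carry the comparison of the drugs. After 24 h of 5-FU, the sums of HY1, HY3 and HY4 were higher and that of HY5 was not called. By edgeR's quasi-likelihood test with Benjamini-Hochberg adjustment over all names, 3 of 4 Y RNA sums were called higher, against 10.9% of the 1078 names tested. The median log2 fold change was 0.96 over the 4 sums and 0.13 over all names. The latter moved by more than 0.1 with the scaling: RLE size factors gave -0.01, and library size alone -0.09. Over all names 117 were called higher and 13 lower. RLE size factors gave 47 and 33, TMM factors taken from name sums 49 and 32, and library size alone 29 and 18.

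HY1, the longest of these RNAs, had CPM sums of 1363 and 967 in 5-FU 24 h and of 464 and 480 in DMSO 24 h. Both 5-FU values exceeded every other library of the table, where the highest was 755 in 5-FU 12 h replicate 1. Its log2 fold change was 1.30 (SE 0.19, edgeR adjusted p = 0.000574), a 2.47-fold difference. It was positive under every scaling tried (1.05 to 1.28 under the 4 others) and missed the threshold when the fit held only the 4 libraries of the comparison (1.20, edgeR adjusted p = 0.0572). The 7q36 copy of HY1, read alone, gave the same value of 1.30 (SE 0.24, edgeR adjusted p = 0.00194). That call was lost without DMSO 24 h replicate 1 (1.22, edgeR adjusted p = 0.0610) and in the fit of the 4 libraries alone (1.23, 0.0962).

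HY3, the name with the highest counts, had CPM sums of 2433 and 2195 in 5-FU 24 h against 945 and 1000 in DMSO 24 h. These were the highest values of the table, the next being 1869 in 5-FU 12 h replicate 1. Its log2 fold change was 1.25 (SE 0.15, edgeR adjusted p = 0.000204), or 2.38-fold, and it was called under all 14 alternatives run. The DMSO 24 h libraries held the lowest HY3 sums of the table. In 5-FU 24 h the chromosome 12 copy held 94.7% and 93.0% of HY3 counts, and the 7q36 copy 2.25% and 1.82%. In DMSO 24 h the 7q36 copy held 88.4% and 91.1%. The higher HY3 sum is thus not a reading of the 7q36 gene.

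HY4 had CPM sums of 101 and 65.7 in 5-FU 24 h against 54.4 and 50.4 in DMSO 24 h, without overlap. Its log2 fold change was 0.66 (SE 0.20, edgeR adjusted p = 0.0426). Scaling by RLE size factors (0.53), by TMM factors taken from name sums (0.55) or by library size (0.41) ended the call, as did DESeq2 (0.54) and the 4 libraries alone (0.56). It was also lost without 5-FU 24 h replicate 1 (0.33, edgeR adjusted p = 0.159) or without DMSO 24 h replicate 1 (0.72, 0.140) or 2 (0.61, 0.220). The 7q36 copy of HY4, read alone, was not called (1.26, edgeR adjusted p = 0.306). On average it held 78.1% of HY4 counts in 5-FU 24 h and 49.8% in DMSO 24 h, so the HY4 sum mixes the gene with dispersed copies. HY5 had sums of 23 and 35 counts in 5-FU 24 h and of 25 and 27 in DMSO 24 h. Its log2 fold change was 0.27, with a 95% interval from -0.64 to 1.17, which holds the value of HY4, so a change of that size was not detectable at this depth. In bulk RNA, more RNA per cell and a different mix of cells cannot be told apart.

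**Figure D2:**
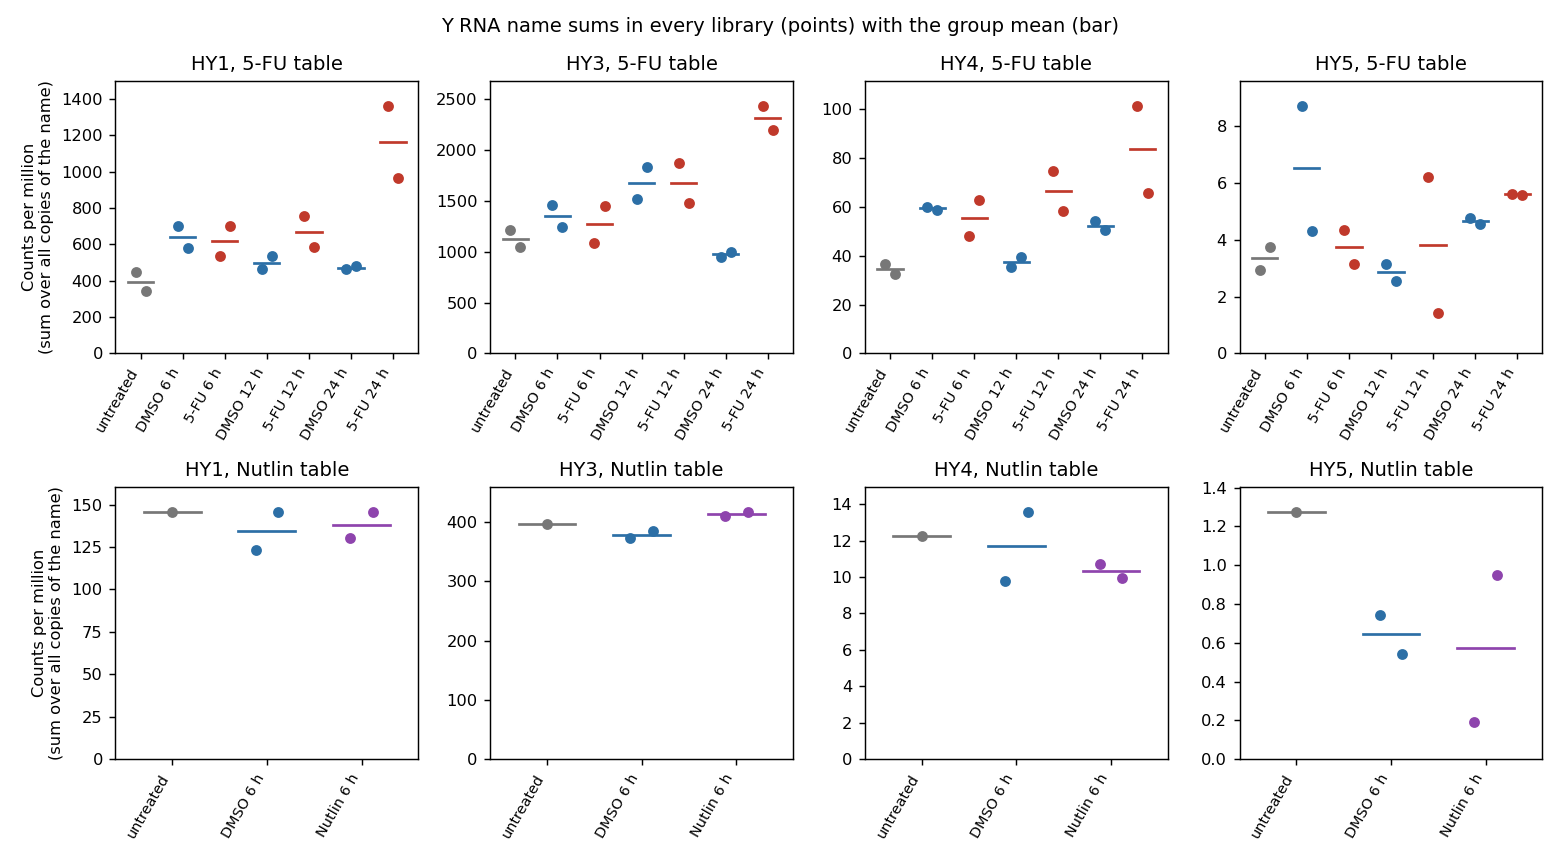
CPM summed over all copies of each name in every library (points; bars are group means of 2 libraries, or the 1 untreated library of the Nutlin table), each panel on its own axis from 0. The 2 libraries of 5-FU 24 h are the highest of the 5-FU table for HY1 and HY3, at 967 to 1363 and 2195 to 2433.

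At 6 h no sum was called. The log2 fold changes were -0.05 for HY1, -0.09 for HY3, -0.10 for HY4 and -0.79 for HY5. By edgeR 0 of 4 were called, 0 had an unadjusted p under 0.05, and 0% of all names were called. DESeq2 also called 0 of 4. The difference between the effects at 24 h and at 6 h was tested itself. It was 1.35 for HY1 (SE 0.26, edgeR adjusted p = 0.0252) and 1.34 for HY3 (SE 0.21, edgeR adjusted p = 0.00629), so 2 of 4 were called higher, against 0.835% of all names. For HY4 it was 0.76 (edgeR adjusted p = 0.343, and 1.05 with 0.0101 without 5-FU 24 h replicate 2) and for HY5 1.06 (adjusted p = 0.576). The HY1 call was lost with RLE size factors (1.26, edgeR adjusted p = 0.0652), TMM factors taken from name sums (1.28, 0.0707) and without each of 5 libraries. Those 5 were 5-FU 6 h replicate 1 (1.12), both DMSO 24 h libraries (1.33 and 1.38) and both DMSO 6 h libraries (1.21 and 1.48). The HY3 call was lost without DMSO 24 h replicate 1 (1.30, edgeR adjusted p = 0.0506). Among the copies of 7q36, 0 of 4 were called in this test by edgeR and 1 by DESeq2, 3 had an unadjusted edgeR p under 0.05, and 0.385% of all copies were called.

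After 12 h HY4 was the name called. It had CPM sums of 74.9 and 58.5 in 5-FU 12 h against 35.2 and 39.6 in DMSO 12 h, a log2 fold change of 0.83 (SE 0.22, edgeR adjusted p = 0.00917). HY1 was at 755 and 586 against 466 and 535 (0.42, edgeR adjusted p = 0.100). HY3 was at 1869 and 1481 against 1520 and 1830, overlapping groups with a log2 fold change of 0.00015 (edgeR adjusted p = 0.999). HY5 had 21 and 5 counts against 10 and 8 (0.41). Thus 1 of 4 sums was called higher, against 28.5% of all names, a share near that background.

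The 12 h comparison depended on its control group and on the scaling. The DMSO 12 h libraries had the smallest totals of the table and its highest scaling factors for the name sums, 1.32 and 1.23. With library size alone the log2 fold change of HY3 was -0.56 (edgeR adjusted p = 0.00422). Set against DMSO libraries of the other times, 6 h and 24 h, HY3 was at 0.55 (edgeR adjusted p = 0.00452). HY4 was at 0.27 and 0.26 in these 2 settings, neither called. Its call was also lost with RLE size factors (0.64) or TMM factors taken from name sums (0.66), without 5-FU 12 h replicate 1 (0.54) and without DMSO 12 h replicate 1 (0.75). Over all names 307 were called higher and 57 lower. RLE size factors gave 184 and 201, TMM factors taken from name sums 194 and 182, and library size alone 61 and 436. Among the copies of 7q36 0 of 4 were called by edgeR and 0 by DESeq2, 0 had an unadjusted edgeR p under 0.05, and 9.71% of all copies were called.

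With Nutlin no Y RNA sum was called. HY1 was at 130 and 146 CPM against 123 and 146 in DMSO, and HY4 at 10.7 and 9.96 against 9.78 and 13.6, both overlapping. HY3 was at 410 and 418 CPM against 373 and 384, without overlap. The log2 fold changes were 0.03 for HY1 (95% interval -0.16 to 0.22), 0.13 for HY3 (-0.03 to 0.29) and -0.17 for HY4 (-0.54 to 0.20). With library size alone the HY1 and HY3 values were -0.14 and -0.05. HY5, with 2 and 8 counts against 7 and 5, was not tested. By edgeR 0 of 3 sums were called, 0 had an unadjusted p under 0.05, and 12.6% of 1039 names were called. Over all names 98 were called higher and 33 lower. RLE size factors gave 87 and 90, TMM factors taken from name sums 88 and 79, scaling without other structural RNA 89 and 66, and library size alone 43 and 190. Of the 3 copies of 7q36 tested, 0 were called and 0 had an unadjusted p under 0.05, against 7.66% of all copies. DESeq2 called 0 at both levels.

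DMSO against untreated cells gave a background for the drug comparisons. Of the 4 sums 0 were called by edgeR and 1 by DESeq2, with 2 at an unadjusted edgeR p under 0.05, and 11.8% of all names were called. The log2 fold changes ran from 0.21 for HY3 to 0.49 for HY4. Among the copies of 7q36 0 of 4 were called by edgeR and 1 by DESeq2, 1 had an unadjusted edgeR p under 0.05, and 1.66% of all copies were called.

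**Figure D3:**
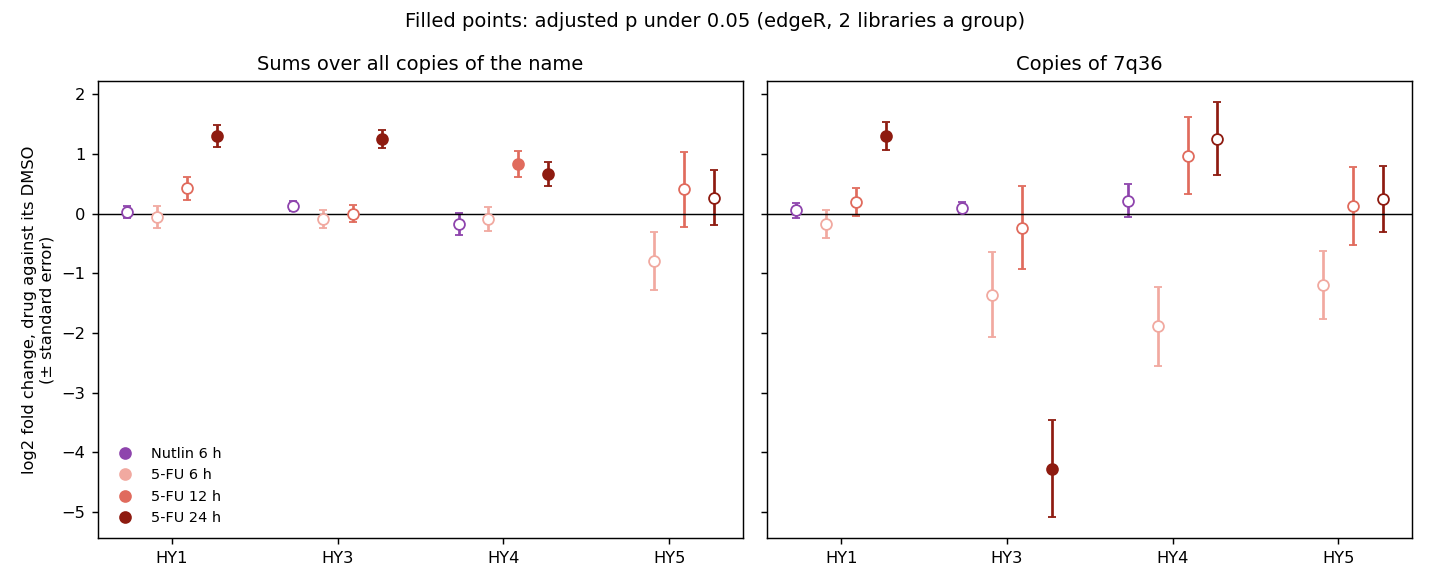
Log2 fold change (points) with its standard error (bars) of each drug group against its own DMSO group, for sums over all copies of a name and for the copy of 7q36 alone; HY5 has no Nutlin point because it did not pass the filter on low counts there. Filled points passed an adjusted p of 0.05; HY3 stands at 1.25 as a sum and at -4.27 as a single copy after 24 h of 5-FU, whereas HY1 stands at 1.30 in both panels.

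Group levels of the sums were ordered as follows in the 5-FU table. HY1 was highest in 5-FU 24 h at 1165 ± 280.3 CPM (SD, n = 2 here and below), then 671 ± 120 in 5-FU 12 h, 642 ± 85.1 in DMSO 6 h and 620 ± 118 in 5-FU 6 h. It went on at 500 ± 49.1 in DMSO 12 h, 472 ± 11.7 in DMSO 24 h and 395 ± 75.8 in untreated cells. The means of 5-FU 12 h, DMSO 6 h and 5-FU 6 h lay within 1 SD of each other. Those of DMSO 12 h and DMSO 24 h lay within the SD of DMSO 12 h but not within that of DMSO 24 h. HY3 stood at 2314 ± 168 in 5-FU 24 h and at 1675 ± 274 and 1675 ± 219 in 5-FU 12 h and DMSO 12 h. It was at 1349 ± 153 in DMSO 6 h, 1269 ± 260 in 5-FU 6 h, 1125 ± 118 in untreated cells and 972 ± 38.9 in DMSO 24 h. Neighbours within 1 SD of one of the pair were 5-FU 12 h and DMSO 12 h, DMSO 6 h and 5-FU 6 h, and 5-FU 6 h and untreated cells.

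The share of Y RNA counts that lay on the 4 copies of 7q36 was compared between 5-FU and DMSO. It was 34.6% ± 4.4 (SD, n = 2) in 5-FU 24 h and 89.3% ± 1.5 in DMSO 24 h, and 95.2% ± 1.1 in 5-FU 12 h and 94.4% ± 0.80 in DMSO 12 h. At 6 h the 5-FU libraries were apart, at 92.5% (95% Wilson interval 91.8% to 93.0%) and 31.6% (30.7% to 32.5%), while DMSO 6 h stood at 92.5% ± 0.59. Wilson intervals cover counting error only. Over all times the mean was 64.0% in 5-FU and 92.1% in DMSO, a difference of -28.1 percentage points. An exact two-sided permutation test within time points gave p = 0.130 over 216 arrangements, whose smallest possible p is 0.00926. The difference was -38.2 points (exact p = 0.0463) without 5-FU 6 h replicate 1 and -18.0 (exact p = 0.250) without replicate 2. Within a single time, 2 against 2 libraries cannot give an exact p below 0.333.

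Without the chromosome 12 copy, the dispersed copies together spanned a narrower range. They held 106 to 169 CPM in the 14 libraries with 5-FU and its controls, and the 5-FU 24 h group lay at 143 ± 36.3 against 149 ± 0.72 in DMSO 24 h. In the Nutlin table they held 44.6 to 58.6 CPM. Their most abundant member after chromosome 12 was the HY3 copy at hg19 chr1:165631824-165631924, with 104 to 152 counts in each 5-FU table library and 115 to 178 in each Nutlin table library. It was called in 0 of the drug comparisons, with log2 fold changes of 0.04, -0.64 and -0.16 at 6, 12 and 24 h of 5-FU and 0.27 with Nutlin. The HY3 copy at chr16:15009316-15009412 held 10 to 63 counts and was not called either.

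Of the 15 dispersed copies tested, 2 were called after 24 h of 5-FU, both higher, and their share is to be read against 4.23% of all copies. The second was the HY3 copy at hg19 chr15:45884182-45884280, in an intron of BLOC1S6 and of AC090527.2 on the same strand. It held 3 and 199 counts in 5-FU 24 h and 0 and 1 in DMSO 24 h (edgeR adjusted p = 0.0234), and 32 in one untreated library. Every other library held at most 3 counts. It thus passed the low-count filter only through that untreated library and 5-FU 24 h replicate 2, the library that makes it high. The call rested on 1 library and was lost without 5-FU 24 h replicate 2 (edgeR adjusted p = 0.629). It was also lost without DMSO 24 h replicate 1 or 2 (edgeR adjusted p = 0.195 and 0.149) and with DESeq2 (DESeq2 adjusted p = 0.539). In the Nutlin table this copy held 59 counts in Nutlin replicate 2 and 0 in the other 4 libraries.

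Of the 6 dispersed copies tested with Nutlin, 1 was called, against 7.66% of all copies. The HY3 copy at hg19 chr6:34841620-34841703 held 36 and 60 counts with Nutlin and 20 and 8 in DMSO, a log2 fold change of 1.79 (SE 0.48, edgeR adjusted p = 0.0384). It was matched to RNY3P15, which overlaps an exon of UHRF1BP1 on the same strand. Of 4 other repeat copies tested within 10 kb, 2 were called higher, with a median log2 fold change of 0.91 over the 4. The call was lost without Nutlin replicate 2 (1.09, edgeR adjusted p = 0.210) and without DMSO replicate 2 (1.25, 0.0508), with DESeq2 (1.82, DESeq2 adjusted p = 0.0690) and with library size alone (1.62, 0.0584). In DMSO against untreated cells 1 of 15 dispersed copies was called, against 1.66% of all copies. It was HY3 at chrX:45621127-45621210 (2.31, SE 0.52, edgeR adjusted p = 0.0226), which was named after its values were seen. It held 3 and 6 counts in untreated cells and 13 to 42 in the DMSO libraries. The call held in 11 of 19 alternatives and was lost without untreated replicate 1 (1.79) or 2 (2.98), DMSO 12 h replicate 1 (2.21) or DMSO 24 h replicate 2 (2.18).

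The ratio of one Y RNA to another needs no scaling between libraries and was taken with 0.5 added to each count. With the copies of 7q36, the log2 ratio of HY1 to HY3 was -0.99 and 4.69 in 5-FU 6 h, -1.30 and -1.32 in 5-FU 12 h, and 4.60 and 4.53 in 5-FU 24 h. In the 6 DMSO libraries it lay between -1.76 and -0.96. The mean difference was 2.95 (exact two-sided permutation p = 0.0185, adjusted over the 6 pairs of names 0.111). With sums over all copies it was 0.16 (exact p = 0.120, adjusted 0.241), and the 6 libraries of 5-FU lay between -1.34 and -0.84. For the other 5 pairs the mean difference of the sums ran from -0.07 for HY3 to HY4 to 0.67 for HY1 to HY5, and 0 of 6 pairs had an adjusted p under 0.05 by either count. With a smallest exact p of 0.00926 and 6 pairs, a pair at that p stays above 0.05 after adjustment unless other pairs are low too. The lack of calls is therefore not read as a lack of difference. Across the 14 libraries log2 CPM of the sums correlated at Pearson's r of 0.82 for HY1 with HY3, 0.90 for HY1 with HY4 and 0.56 for HY3 with HY4, values that share scaling factors and are given as a description.

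**Figure D4:**
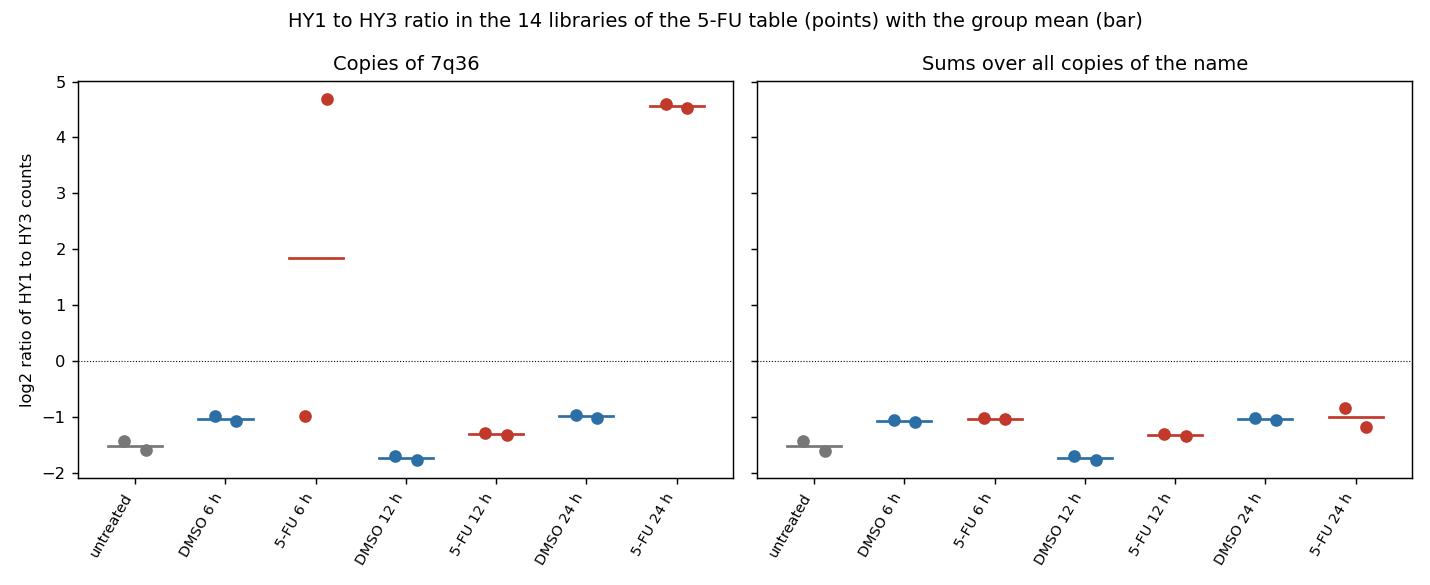
Log2 ratio of HY1 to HY3 counts in the 14 libraries of the 5-FU table (points; bars are means of 2), from the copies of 7q36 and from sums over all copies. With single copies 3 libraries stand between 4.53 and 4.69 and the other 11 between -1.76 and -0.96; with sums all 14 lie between -1.77 and -0.84.

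The names whose levels ran most like a copy of 7q36 over the 14 libraries were picked by Pearson's r of log2 CPM among 1074 names. For HY1 they were tRNA-Gly-GGG (r = 0.94), a polymerase III transcript, and U5 (0.88), a spliceosomal RNA. For HY3 they were L1MEa (0.57, but Spearman's rho 0.20) and MER101 (0.54, rho 0.64), for HY4 LTR57 (0.71) and LTR75 (0.56), and for HY5 HERVFH19-int (0.66) and MER57E1 (0.64). The values share library and depth, and no p is given.

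Other short structural RNAs gave the setting in which the Y RNA sums moved. After 24 h of 5-FU 16 of 61 polymerase III names were called higher and 0 lower (median log2 fold change 0.66), and 7 of 11 U RNA names were called higher and 0 lower (0.76), against 10.9% of all names called higher. With RLE size factors the counts were 10 higher and 1 lower for polymerase III names, and 4 higher for U RNA names. In the fit of the 4 libraries alone they were 1 and 0. Without DMSO 24 h replicate 2 they were 7 higher and 1 lower, and 2 higher. Without 5-FU 24 h replicate 2 the first was 25, and without DMSO 24 h replicate 1 the second was 4. These settings for other structural RNA were chosen after the values were seen.

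BC200, a polymerase III RNA best known from neurons, was higher at 24 h by 2.68 (SE 0.16, edgeR adjusted p = 4.02e-07) and was called under every setting run. 7SLRNA, the RNA of the signal recognition particle, was higher by 0.86 (edgeR adjusted p = 0.0183), and U6, the spliceosomal RNA made by polymerase III, by 0.47 (edgeR adjusted p = 0.0431). Both calls were lost with RLE size factors (0.74 and 0.35), without 5-FU 24 h replicate 1 (0.39 and 0.17) and without DMSO 24 h replicate 2 (0.68 and 0.38), and that of U6 also without DMSO 24 h replicate 1 (0.57). 7SK, which holds the elongation factor P-TEFb inactive, was at 0.67 (edgeR adjusted p = 0.0562). It was at 0.19 without 5-FU 24 h replicate 1 and at 1.02 (edgeR adjusted p = 3.83e-05) without replicate 2. 5S, the ribosomal RNA made by polymerase III, stood at 150 and 121 CPM in 5-FU 24 h against 406 and 78.8 in DMSO 24 h. Its log2 fold change of -0.84 (edgeR adjusted p = 0.292) turned to 0.78 (edgeR adjusted p = 0.0630) without DMSO 24 h replicate 1 and was -1.59 (edgeR adjusted p = 0.000997) without replicate 2.

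At 12 h 34 of 61 polymerase III names and 6 of 11 U RNA names were called higher, against 28.5% of all names. With library size alone 26 were called higher and 3 lower, and 2 higher and 1 lower. At 6 h edgeR and DESeq2 called 0 of either list, and 17 polymerase III and 0 U RNA names had an unadjusted edgeR p under 0.05. With Nutlin 3 of 53 polymerase III names were called higher and 4 lower, and 1 of 11 U RNA names was called higher, against 12.6% of all names called in either direction. 7SK was at 0.37 with Nutlin (edgeR adjusted p = 8.56e-06) and at 0.19 with library size alone (edgeR adjusted p = 0.000331). Without DMSO replicate 2 of that table it was at 0.39 (edgeR adjusted p = 0.0771). 7SLRNA was at 0.19 (edgeR adjusted p = 0.0140), and at 0.02 (edgeR adjusted p = 0.761) with library size alone. Whether these differ from the Y RNA sums was not tested.

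Among repeat names with most of their counts on 1 copy, a change of that main copy was uncommon. Of 792 names with at least 50 counts in every library of the 5-FU table, 78 had at least 50% of their counts on 1 copy in every library or in all but 1. The main copy changed between libraries in 3 of these 78, HY3, LTR6A and U1, a tally set up after the HY3 counts were seen. In HY3 the main copy differed in 3 of 14 libraries, in LTR6A in 2 and in U1 in 1. In the Nutlin table the main copy changed in 3 of 117 such names. These were BC200, SST1 and U1, each in 1 of 5 libraries.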

How the data were processed

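The deposited tables hold raw read counts per repeat copy from stranded total RNA libraries of 18 samples in 9 groups. Per the submitters' processing notes, Trimmomatic 0.32, cutadapt 1.10 and Bowtie2 were used with build hg19, and edgeR and DESeq2 are named. The counting program, the repeat annotation and the handling of reads with several matches are not given in the sources used here.

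Counts were tested as deposited with edgeR 4.0.16 (R 4.3.3), per copy and per repeat name, after edgeR's filter on low counts. TMM factors came from all copies for the name sums and from the copies that passed the filter for single copies. Tests used glmQLFit and glmQLFTest, with Benjamini-Hochberg adjustment over every row tested and a threshold of 0.05. All groups of a table shared a fit. It was tested on simulated data. Alternatives were DESeq2 1.42.0, other scalings, filters and controls, single libraries left out, and the replicate number as a block. Ratios and shares had exact permutation tests within time points (scipy 1.17.1). Sequences came from GENCODE release 29, GRCh38, and dispersed copies were matched to it by shared spacing within 30 bases. Named were the copies of 7q36, the name sums, the 3 dispersed copies with the highest mean CPM in each table and up to 3 called ones per drug comparison. Members and lists were chosen with earlier results of these data known.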

Additional observations from a re-analysis of the deposited data

Results flagged for a closer look

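The effect of 5-FU on 2 Y RNA sums differed between time points. For HY1 the log2 fold change at 24 h exceeded that at 6 h by 1.35 (SE 0.26, edgeR adjusted p = 0.0252), from -0.05 at 6 h to 1.30 at 24 h. For HY3 the difference was 1.34 (SE 0.21, edgeR adjusted p = 0.00629), from -0.09 to 1.25. Over the 18 alternatives run the HY1 difference ran from 1.08 to 1.58 and was called in 10, and the HY3 difference ran from 1.09 to 1.56 and was called in 17.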

How the results depend on the processing

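The HY3 sum at 24 h of 5-FU was called under all 14 alternatives (edgeR or DESeq2 adjusted p at most 0.0178) and the HY3 copy of 7q36 under all 13 (at most 0.0354). Depth limited HY5. The HY3 sum at 12 h turned to -0.56 with library size alone, against 0.00015; the cause was not tested. Calls among the 3 or 4 name sums moved as follows. The number of all names called moved with the scaling too, so these counts are not read as results about Y RNAs alone. At 12 h (1 called) 0 were called with RLE size factors or TMM factors from the name sums and 2 with the libraries of the comparison alone, which gave 1 at 24 h (3 called). For 24 h minus 6 h (2 called) 1 was called with RLE size factors, with TMM factors from the name sums and at an adjusted p under 0.01. For DMSO against untreated (0 called) 1 was called with DESeq2, with DMSO 12 h alone and with library size alone, 2 with DMSO 6 h alone and 3 with the libraries of the comparison alone. Leaving out single libraries gave 0 to 1 calls at 12 h, 2 to 3 at 24 h, 0 to 3 for 24 h minus 6 h, and 0 in the other comparisons.

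Calls among the copies of 7q36 moved too, and the shares of all copies called under these other settings are not given here. At 6 h (0 called) 2 were called with no filter on low counts. At 12 h (0 called) 1 was called with no filter and 1 with the libraries of the comparison alone. At 24 h 2 were called, HY1 higher and HY3 lower, against 4.23% of all copies called in either direction. There the libraries of the comparison alone gave 1. With no filter 3 were called, HY4 being the third (1.32, edgeR adjusted p = 0.00163). For 24 h minus 6 h (0 called) 1 was called with DESeq2, RLE size factors, library size alone, at least 10 counts in every library, or without other structural RNA, and 3 with no filter. For DMSO against untreated (0 called) DESeq2 called 1, as did a minimum of 10 counts in every library, and 2 were called with the libraries of the comparison alone. Leaving out single libraries gave 0 to 2 calls at 6 h, 1 to 2 at 24 h, 0 to 2 for 24 h minus 6 h, and 0 in the other comparisons. Without single libraries the difference in the 7q36 share ran from -38.2 to -18.0 percentage points.

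Mean differences in log2 ratio without single libraries ran from 2.01 to 3.90 for HY1 to HY3, -0.0695 to 2.70 for HY1 to HY4, 0.48 to 1.24 for HY1 to HY5, -2.07 to -1.20 for HY3 to HY4, -2.88 to -1.30 for HY3 to HY5 and -1.68 to 0.77 for HY4 to HY5. With sums over all copies HY3 to HY5 turned from -2.09 to 0.50 and HY4 to HY5 from -0.46 to 0.57. With sums and without the 12 h libraries, a setting chosen after seeing the data, HY3 to HY4 turned from -1.64 to 0.31, HY3 to HY5 to 0.80 and HY4 to HY5 to 0.49.

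Groups share replicate numbers, but the replicate differences of a drug group and its DMSO group correlated at -0.01 with Nutlin and at -0.00397, -0.02 and 0.15 at 6, 12 and 24 h of 5-FU. With the replicate number as a block 2 of 4 sums were called at 24 h, since HY4 had an adjusted p of 0.0531 by edgeR, and the block changed no other call among the Y RNA sums or the copies of 7q36. It ended the calls of U6 at 24 h and of 7SLRNA with Nutlin (edgeR adjusted p = 0.0524 and 0.120). The ratio of HY1 to HY3 stayed at 2.95 with the block.

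Calls among other structural RNA, in either direction and under settings chosen after seeing the data, moved as follows. Calls over all names moved with the setting too. With library size alone they went from 307 higher and 57 lower to 61 and 436 at 12 h, and from 117 and 13 to 29 and 18 at 24 h. The counts below are therefore not read as results about these lists. Of polymerase III names 13 were called at 6 h (0 called) with the libraries of the comparison alone and 19 at 12 h (34 called) against DMSO of the other times. At 24 h (16 called) 10 were called with library size alone and 1 with the libraries of the comparison alone, and with Nutlin (7 called) 3 with DESeq2. Of U RNA names 3 were called at 12 h (6 called) with library size alone. At 24 h (7 called) 4 were called with RLE size factors, TMM factors from the name sums or library size alone and 0 with the libraries of the comparison alone. With Nutlin (1 called) 0 were called with DESeq2, 3 with RLE size factors or TMM factors from the name sums and 5 with the libraries of the comparison alone. Leaving out single libraries gave 8 to 25 and 2 to 8 calls at 24 h, and 2 to 7 and 0 to 3 with Nutlin, for polymerase III and U RNA names.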
